A study of Mus musculus with 6 samples.

Results

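The genes described here encode enzymes that make, activate, inactivate or conjugate steroid hormones. They were chosen by name, as a list of 9: Hsd11b1, Hsd11b2, Hsd17b2, Hsd17b11, Sult1e1, Sts, Srd5a1, Cyp21a1 and Cyp11a1. A row was found for 8 of the 9, among 24077 genes in the single-cell table and 30828 in the section tables. Sts was not analysed here. The uteri came from CD-1 mice aged 12 months that had received corn oil (CO) or diethylstilbestrol (DES, 1 mg/kg/day), a synthetic estrogen, as newborns. The cells came from 1 CO library, which pooled 2 mice, and from 1 DES library, which pooled 4, and the spatial sections were 2 of CO and 2 of DES, each of 1 mouse and called A and B. CO mice were taken in estrus, while DES mice are in persistent estrus, so treatment and cycle history cannot be told apart. DES uteri at this age carry foci of adenocarcinoma, for which the sections were examined. With 1 library per condition, no test of CO against DES was possible in cells, and values from cells carry intervals that cover counting error only.

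Steroid hormones are switched on and off inside target tissues as well as in the gonads and adrenals. The 11β-hydroxysteroid dehydrogenases interconvert active and inactive glucocorticoids, the 17β-hydroxysteroid dehydrogenases do the same for estrogens and androgens, and 5α-reductases convert testosterone and progesterone to 5α-reduced products. Sulfotransferases add sulfate to estrogens, which then no longer bind their receptor. In the cycling uterus the balance of such enzymes sets how much active hormone reaches the luminal epithelium that lines the cavity, the glands and the stroma beneath.

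On the mm10 build (GRCm38), Hsd11b1 lies on chromosome 1 from 193221634 to 193264075, minus strand, and overlaps Lamb3. Hsd11b2 lies on chromosome 8 from 105518755 to 105523988, plus strand, and Hsd17b2 on the same chromosome from 117701904 to 117759027, plus strand. Hsd17b11 lies on chromosome 5 from 103989762 to 104021919, and Sult1e1 on that chromosome from 87575969 to 87591594, both on the minus strand. Srd5a1 lies on chromosome 13 from 69573449 to 69611442, minus strand, and overlaps Nsun2. Cyp21a1 lies on chromosome 17 from 34801348 to 34804561, minus strand, where its 3′ end overlaps the pseudogene Tnxa. Cyp11a1 lies on chromosome 9 from 58006411 to 58027023, plus strand. How reads were divided between overlapping genes was not tested.

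Cells with a deposited cell type numbered 12253 in CO, with a median of 10775 unique molecular identifiers (UMIs), and 9701 in DES, with a median of 17035. Of their barcodes, 32 occurred in both libraries. The sections held 1357 to 1834 spots, with 9117099 to 12506177 UMIs in all. A level below is in CPM, the UMIs of a gene per 1000000 UMIs of a cell group, a section or a set of spots, and levels are compared only within a gene because UMI counts were not scaled to transcript length. Stromal and muscle cells were scarce in the DES library, which had 1 stromal cell against 1326 in CO, and no myocytes, pericytes or Ctla2a cells (a CO type named for its leading gene) against 85, 75 and 465. The cells labelled mesothelial had 21126 CPM in CO of the 6 stromal markers (Dpt, Vcan, Col6a3, Pdgfra, Dcn and Lum), more than the 12687 CPM of the cells labelled stromal, and 2667 CPM of mesothelial markers against 163 CPM. That sum does not hold for each stromal gene, since Dpt was at 1.88 CPM in mesothelial and 265 CPM in stromal cells.

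The glucocorticoid enzymes divided between compartments in the CO library. Hsd11b2, which inactivates corticosterone, was at 1145 CPM (95% Poisson interval 1125 to 1164) in stromal cells and 906 CPM (871 to 942) in Ctla2a cells. It was at 76.6 CPM in myocytes, 25.4 CPM in lymphocytes and 19.9 CPM in pericytes, and at 5.84 to 10.3 CPM in epithelial, mesothelial, myeloid and endothelial cells. Stromal cells held 78.5% and Ctla2a cells 14.8% of the Hsd11b2 UMIs of annotated CO cells. After each cell was thinned to 3000 UMIs, 79.7% of 1303 stromal cells and 80.9% of 439 Ctla2a cells had a Hsd11b2 UMI (90.9% and 88.4% unthinned), against 5.81% of 310 lymphocytes (7.57% unthinned), a cell type that should lack the gene. The median depths before thinning were 8727 UMIs in stromal cells, 5763 in Ctla2a cells and 4033 in lymphocytes. In the DES library no cell type with at least 50 cells exceeded 0.817 CPM, but the type with the high level in CO was represented there by 1 cell, with 0 Hsd11b2 UMIs.

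Hsd11b1, which regenerates active glucocorticoid with NADPH supplied by H6pd, was high in part of the epithelium. In the CO library it was at 55.5 CPM (53.8 to 57.1) in epithelial cells, 32.5 CPM (29.4 to 36.0) in stromal cells, 24.9 CPM (18.8 to 32.4) in lymphocytes and 23.3 CPM (17.98 to 29.7) in Ctla2a cells, the intervals of the last 3 overlapping. The other CO types with at least 50 cells ranged from 2.74 to 11.3 CPM. Within CO epithelium, the developing gland cells described below were at 533 CPM and the luminal cells at 2.53 CPM, below stromal cells. In the DES library lymphocytes stood highest, at 24.2 CPM (16.9 to 33.5), above epithelial cells at 8.86 CPM (8.43 to 9.31) and above mesothelial cells at 0.867 CPM. The intervals of the 2 libraries overlapped for lymphocytes and not for epithelial cells. Among lymphocytes with a UMI of a T cell marker the level was 39.0 CPM in CO and 44.4 CPM in DES, against 19.6 and 16.6 CPM in those without. Lymphocytes with a natural killer or innate lymphoid marker gave 42.8 and 55.3 CPM, and those with a B cell marker 8.90 and 15.01 CPM, the last from 7 and 2 Hsd11b1 UMIs.

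Enzymes acting on sex steroids were led by the epithelium in the CO library. Hsd17b2, which oxidizes estradiol to estrone, was at 22.9 CPM (21.8 to 23.9) in CO epithelial cells and at 2.13 to 5.67 CPM in the other types with at least 50 cells. Srd5a1, the type 1 5α-reductase, was at 21.4 CPM (20.4 to 22.4) in CO epithelial cells and at 0.912 to 5.38 CPM in those other types. Cyp21a1, the 21-hydroxylase of glucocorticoid and mineralocorticoid synthesis in the adrenal cortex, was at 94.0 CPM (91.8 to 96.1) in CO epithelial cells and at 6.47 to 16.02 CPM in those other types. The study had picked Cyp21a1 on these cells as one of its luminal genes, so its luminal level is a description of the same counts. Epithelial cells held 83.0% to 89.7% of the annotated CO UMIs of Hsd11b1, Hsd17b2, Srd5a1 and Cyp21a1. They were 2583 of the 12253 cells and held 78801159 of the 183794370 UMIs of all genes in those cells.

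Hsd17b11, a lipid droplet enzyme that oxidizes androstanediol, was found in every cell type with at least 50 cells. Among types with at least 50 cells it ranged from 51.6 CPM in lymphocytes to 165 CPM (162 to 168) in epithelial cells of the CO library. In the DES library it ranged from 54.4 CPM in lymphocytes to 148 CPM (133 to 165) in the myeloid cells labelled Lyz2-high, a label of that library alone. DES epithelial cells were at 92.6 CPM (91.2 to 94.1).

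**Figure D1:**
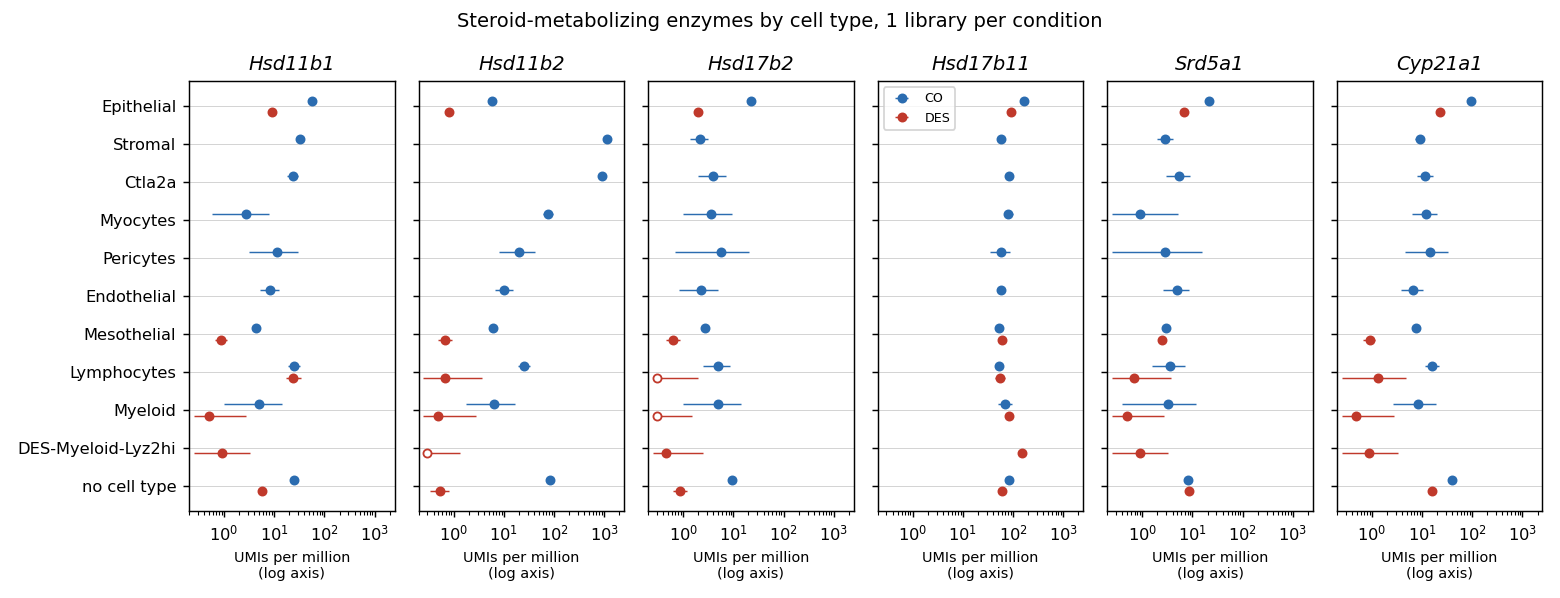
Level of 6 members in each cell type of the CO and DES libraries (CPM of summed UMIs, log axis; bars are exact 95% Poisson intervals and open symbols mark 0 UMIs). Hsd11b2 stood at 1145 and 906 CPM in CO stromal and Ctla2a cells and below 1 CPM in every DES type shown, and Hsd17b11 stayed between 51.6 and 165 CPM in types with at least 50 cells.

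The remaining enzymes were scarce. Sult1e1, the estrogen sulfotransferase, had 23 UMIs in 20 annotated CO cells, of which 16 were epithelial, and 2 UMIs in 2 DES cells. Cyp11a1, which starts steroid synthesis by cleaving the cholesterol side chain, had 16 UMIs in 8 annotated CO cells and 3 UMIs in 3 DES cells. Of the 8 CO cells, 3 also had a UMI of a mast cell or basophil marker, and 0 had a UMI of the steroidogenic markers Star, Cyp17a1, Hsd3b1, Cyp19a1, Inha, Nr5a1 or Lhcgr. In DES epithelial cells 0 Cyp11a1 UMIs were counted, which allows a level of up to 0.0170 CPM. In the sections Cyp11a1 had 6 and 10 UMIs in CO A and CO B against 2 and 1 in DES A and DES B, and Sult1e1 had 3 and 1 against 0 and 0. Neither gene passed the filter on low counts in a comparison of all 4 sections, and no test is given for them.

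Within CO epithelium the members followed 2 patterns across the authors' clusters. The study named clusters 3, 8 and 14 (355 cells) developing gland, cluster 13 (62 cells) mature gland and 10 further clusters (2095 cells) luminal. It interpreted cluster 12 (71 cells), which lay apart, as epithelial stem cells, and cluster 14 as glandular progenitors. Hsd11b1 was at 537, 633 and 288 CPM in clusters 3, 8 and 14 and at 1.53 to 3.34 CPM in the luminal clusters. Over the pooled cells this is 533 against 2.53 CPM, or 211-fold. The luminal Hsd11b1 level lay below those of CO myeloid cells (4.87 CPM, 3 UMIs) and mesothelial cells (4.32 CPM). How much of it is background was not tested, and the fold depends on this low level. Srd5a1 was at 168, 179 and 111 CPM in the same 3 clusters and at 1.67 to 7.09 CPM in the luminal ones, or 29.5-fold higher in developing gland over the pooled cells. Every luminal cluster lay below every developing gland cluster for both genes. The mature gland cluster, at 4.49 CPM for Hsd11b1 and 13.5 CPM for Srd5a1, stood near the luminal clusters and not near the developing gland. H6pd, the cofactor supplier of Hsd11b1, was at 136 CPM in developing gland, 21.3 CPM in mature gland and 27.7 CPM in luminal cells. Clusters were formed on these counts, so these differences were not tested.

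The second pattern ran the other way. Cyp21a1 was at 68.8 to 136 CPM in the luminal clusters against 5.51 to 9.88 CPM in the developing gland clusters and 10.1 CPM in the mature gland, a luminal level 12.2-fold that of developing gland. Hsd17b2 was at 14.1 to 36.6 CPM in luminal clusters against 2.20 to 3.48 CPM in developing gland and 1.12 CPM in mature gland, 8.10-fold over developing gland. Cluster 12, the proposed stem cells, followed neither pattern, with Cyp21a1 at 114 CPM and Hsd17b2 at 3.96 CPM, and it had the highest Hsd11b1 level outside developing gland, 14.1 CPM. Hsd17b11, at 171 CPM in luminal cells and 129 CPM in developing gland, and Hsd11b2, at 6.02 and 4.48 CPM, differed less between them.

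Shares of cells at equal depth gave the same order. At 3000 UMIs per cell, Hsd11b1 was seen in 61.1% (55.8 to 66.2) of 355 developing gland cells and 0.963% (0.589 to 1.48) of 2076 luminal cells, against 85.6% and 7.30% unthinned. Myeloid cells, taken as background for it, gave 0 of 67, which allows a share of up to 4.48% (4.48% unthinned), at a median of 7161 UMIs. Srd5a1 was seen in 40.3% and 1.30% (80.3% and 14.7% unthinned). Lymphocytes of the same library, read as the background for Srd5a1, gave 0.645% of 310 cells at 3000 UMIs and 1.89% unthinned. Cyp21a1 was seen in 27.0% of luminal and 1.97% of developing gland cells (86.1% and 13.8% unthinned), and lymphocytes gave 4.52% (8.51% unthinned). Hsd17b2 was seen in 7.47% of luminal and 0.282% of developing gland cells (44.4% and 5.07% unthinned), and lymphocytes gave 1.94% (2.60% unthinned). The shares of Cyp21a1 and Hsd17b2 in developing gland thus lay at or below the background share. The share of Hsd11b1 in luminal cells, 0.963%, lay within the 4.48% that its background allows. Median depths were 17802 UMIs in developing gland, 25654 in luminal cells and 4033 in lymphocytes.

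Cells with both members of a pattern were common in developing gland. Of its 355 cells, 261 had UMIs of both Hsd11b1 and Srd5a1, and Srd5a1 was seen in 85.9% of cells with Hsd11b1 against 47.1% of cells without. At 3000 UMIs per cell these shares were 43.8% and 34.8%. In luminal cells at that depth Cyp21a1 was seen in 27.1% of cells with Hsd17b2 and in 27.0% of cells without.

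**Figure D2:**
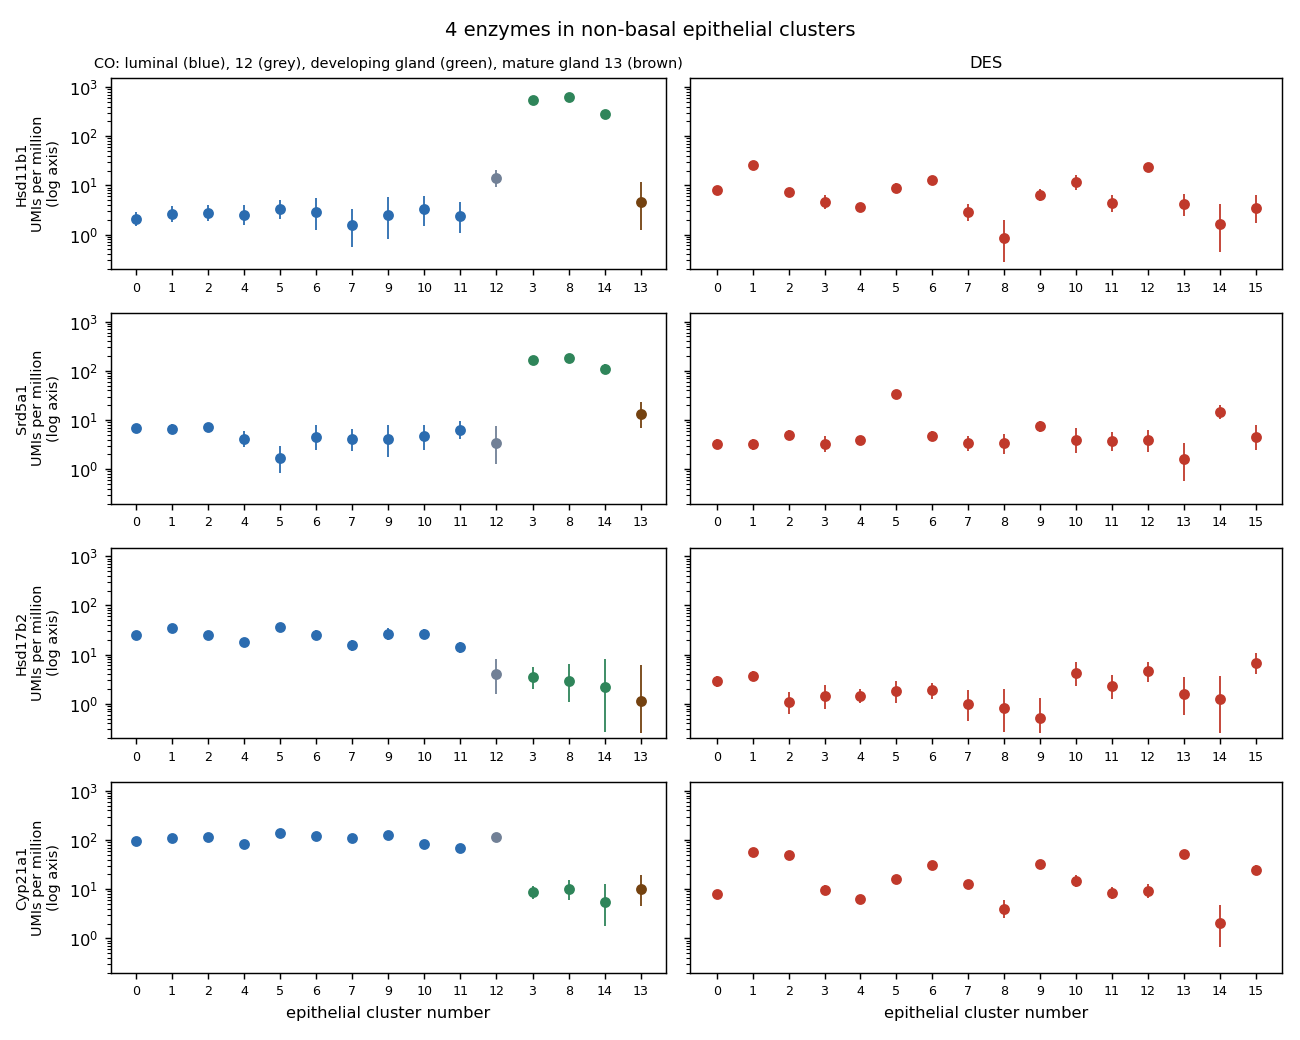
Level of 4 members in each non-basal epithelial cluster of the CO library (left) and the DES library (right), in CPM on log axes, with exact 95% Poisson intervals as bars. In CO, Hsd11b1 (288 to 633 CPM) and Srd5a1 (111 to 179 CPM) peak in developing gland clusters 3, 8 and 14, where Cyp21a1 is at most 9.88 CPM; in DES, no cluster exceeds 26.1 CPM of Hsd11b1 or 34.3 CPM of Srd5a1.

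The DES epithelial clusters had no cluster at the developing gland level of CO. Hsd11b1 ranged from 0.835 to 26.1 CPM over the 16 DES clusters, highest in cluster 1 and next in cluster 12 at 23.4 CPM. Srd5a1 was at 34.3 CPM in cluster 5 and 14.9 CPM in cluster 14, and at 1.58 to 7.50 CPM in the other 14. Cyp21a1 ranged from 2.06 CPM in cluster 14 to 58.1, 52.0 and 50.1 CPM in clusters 1, 13 and 2, all below the lowest CO luminal cluster. Hsd17b2 ranged from 0.517 to 6.74 CPM, below every CO luminal cluster. Hsd11b1 and Srd5a1, which peaked in the same CO clusters, peaked in different DES clusters: cluster 1 was at 3.19 CPM of Srd5a1 and cluster 5 at 9.02 CPM of Hsd11b1. In the integrated clustering, DES clusters 8 and 11, with 8750 and 7316 CPM summed over the basal markers Krt5, Krt14, Krt15 and Trp63, had 28.3 and 18.3 CPM of Srd5a1. Integrated cluster 10, with 680 CPM of these markers, had 33.8 CPM.

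Over all non-basal epithelial cells, 4 of the 5 members with at least 10 CPM in either library were more than 2-fold lower in DES, against 7.71% of the 8414 genes that reached this level. Of the members, Hsd17b2, Hsd11b1 and Srd5a1 reached 10 CPM only in CO, where they were high, so nothing is read from this count. Hsd17b2 was at 22.9 CPM in CO and 2.12 CPM in DES, 10.8-fold lower (9.63 to 12.2). Hsd11b1 was at 55.5 and 9.36 CPM, 5.93-fold lower (5.59 to 6.29). Cyp21a1 was at 94.0 and 23.6 CPM, 3.98-fold lower (3.82 to 4.14), and Srd5a1 at 21.4 and 5.74 CPM, 3.72-fold lower (3.43 to 4.03). Hsd17b11, at 165 and 95.1 CPM, was 1.74-fold lower (1.70 to 1.78). The CO means of Hsd11b1 and Srd5a1 rest on 355 developing gland cells of 2583, and those of Cyp21a1 and Hsd17b2 on the luminal cells. In CO luminal cells alone Hsd11b1 was at 2.53 CPM (2.17 to 2.94), below its DES level of 9.36 CPM. Srd5a1 was there at 5.58 CPM (5.03 to 6.17), near its DES level of 5.74 CPM. The lower DES levels of these 2 genes thus hold against a CO mean that includes developing gland, and not against luminal cells. At 3000 UMIs per cell, Cyp21a1 was seen in 23.1% of CO and 6.73% of DES cells (74.3% and 35.1% unthinned), Hsd11b1 in 9.45% and 2.26% (18.6% and 19.1%), Srd5a1 in 6.75% and 1.86% (23.5% and 14.02%) and Hsd17b2 in 6.09% and 0.395% (37.0% and 6.40%). The unthinned Hsd11b1 shares thus showed no difference that the thinned shares and the levels showed. Median depths were 23458 and 24664 UMIs, and thinning left out 21 CO and 49 DES cells. Background shares in DES lymphocytes (median 5599 UMIs) were 0.469% for Cyp21a1 and for Srd5a1 and 0 of 213 for Hsd17b2, which allows up to 1.41%, so that the DES share of Hsd17b2, 0.395%, could not be told from background by shares. By level, DES non-basal epithelial cells were at 2.12 CPM (1.90 to 2.35) and DES mesothelial cells at 0.635 CPM (0.455 to 0.861). DES myeloid cells (median 8648 UMIs) gave 0 of 218 for Hsd11b1, which allows up to 1.38%.

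Outside epithelium fewer members reached 10 CPM. In mesothelial cells 1 did, Hsd17b11, and it was within 2-fold (2.33% of 8814 genes were more than 2-fold lower in DES). In myeloid cells the single member, Hsd17b11, was also within 2-fold (22.8% of 8645 genes were lower). In lymphocytes 2 of 4 members were more than 2-fold lower, against 5.05% of 8459 genes. These were Hsd11b2, with 57 UMIs in CO and 1 in DES, and Cyp21a1, with 36 and 2. Both genes reached 10 CPM only in CO, so nothing is read from that count. Their levels in CO lymphocytes, 25.4 and 16.02 CPM, stood beside much higher levels in CO stromal and luminal cells, and the part of free RNA in them was not tested. Hsd11b1 and Hsd17b11 in lymphocytes differed by less than their counting intervals, with DES over CO ratios of 0.970 (0.620 to 1.501) and 1.05 (0.783 to 1.41).

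Other steroid enzymes were given by pathway lists of 48 measured genes. Of 17 with at least 10 CPM in epithelial cells, 1 was more than 2-fold higher in DES and 2 were lower, beside 7.71% of 8414 genes in all that were lower. The median log2 ratio of DES over CO was -0.11, against 0.06 for all genes. The higher gene was Akr1c14, a 3α-hydroxysteroid dehydrogenase, at 5.09 CPM in CO and 12.9 CPM in DES. The lower genes were Sult1d1, a sulfotransferase that marks glands, at 115 and 18.6 CPM (6.21-fold), and H6pd at 38.1 and 10.2 CPM (3.74-fold). Next in size, within 2-fold, were Hsd17b7, which reduces estrone to estradiol, at 14.6 and 7.52 CPM, and Tspo, a mitochondrial outer membrane protein, at 394 and 213 CPM. Among the other cell types the lists had 1 higher gene of 17 in mesothelial cells, 1 lower of 14 in lymphocytes and 3 lower of 15 in myeloid cells. Of all genes, 2.33% were lower in mesothelial cells, 5.05% in lymphocytes and 22.8% in myeloid cells. The share of all genes that were higher is not given, so nothing is read from these list counts.

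In the sections each spot can hold several cells, so a lower level can come from fewer cells of a type or from less RNA per cell, and the 2 cannot be told apart. Whole sections, the authors' stromal spot clusters, and the 15% of spots with the highest epithelial or muscle marker score were each summed per section. CO against DES was then tested across all genes with edgeR's quasi-likelihood test and Benjamini-Hochberg adjustment over 2 sections per group, where an exact permutation of 1 gene's values cannot go below p = 0.333. Groups that do not overlap give that p and no less. The share of all genes whose groups do not overlap was not counted, so a lack of overlap below is only a description. Between-section spread was large in CO: Cyp21a1 in whole sections was 15.3 times higher in CO A than in CO B. The paper reports a substantial tissue fold in CO B and limited identification of clusters in DES B. For that reason it based most of its spatial analyses on 1 section per group. CO B and DES B were both kept here as replicates. The part of the tissue fold in the differences between CO A and CO B was not tested.

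Srd5a1 was higher in both DES sections than in both CO sections. In whole sections it was at 5.36 CPM in CO A and 24.1 CPM in CO B, and at 176 and 229 CPM in DES A and DES B. In epithelium-rich spots it was at 8.61 and 49.2 CPM in CO against 271 and 325 CPM in DES, and in stromal spots at 3.58 and 14.1 CPM against 87.7 and 37.5 CPM. The groups did not overlap in any of these, and the log2 fold changes were 3.60 ± 0.72 (SE), 3.09 ± 0.74 and 2.67 ± 0.59. The edgeR adjusted p-values were 0.0625, 0.0697 and 0.0722, so none passed 0.05. They were 4.00e-08, 7.40e-05 and 0.0418 with DESeq2, and 0.0424, 0.0257 and 8.12e-06 with edgeR without the filter. In stromal spots Srd5a1 reached the filter's minimum in both DES sections but in only 1 CO section, so the CO sections alone would not have passed it. Its filtered fold and p there are not read as support. With 1 section left out, the log2 fold change ran from 2.89 (without CO A) to 5.01 (without CO B) in whole sections and from 2.31 to 4.79 in epithelium-rich spots. In stromal spots it ran from 1.99 (without DES A) to 4.09 (without CO B). Such a fit leaves 1 section in a group and moves the calls of all genes, so only its fold is given. In muscle-rich spots Srd5a1 had 6 and 1 UMIs in CO and 4 and 16 in DES, and did not pass the filter on low counts. This direction was the reverse of that in non-basal epithelial cells as a whole, where the DES library was 3.72-fold lower. Beside CO luminal cells alone, at 5.58 CPM, the DES non-basal cells were near equal, at 5.74 CPM. The cell and section tables are separate assays and were not tested against each other.

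In DES sections Srd5a1 followed both the basal and the epithelial markers from spot cluster to spot cluster. Its level ranged from 3.73 CPM in cluster 6 to 307 CPM in cluster 1 of DES A, and from 10.3 CPM in cluster 9 to 587 CPM in cluster 7 of DES B. Pearson's r of log2 levels with the summed basal markers was 0.971 over 8 clusters of DES A and 0.921 over 10 of DES B, and with the epithelial markers 0.927 and 0.920. These clusters share a section and differ in depth, and r is given as a description. In CO sections the level stayed at 0 to 9.01 CPM in CO A and 0 to 47.6 CPM in CO B. Spots with an Srd5a1 UMI were 4.26% of CO A, 10.7% of CO B, 36.6% of DES A and 49.4% of DES B. Basal markers themselves summed to 4.08 and 216 CPM in the CO sections and 10330 and 6487 CPM in the DES sections, and in stromal spots to 0 and 135 CPM against 7719 and 2387 CPM. Their part in the Srd5a1 difference was not tested. One small CO B cluster of 17 spots had 7592 CPM of basal markers and 25.4 CPM of Srd5a1. In the DES cell library the basal integrated clusters 8 and 11 were at 28.3 and 18.3 CPM of Srd5a1, and the non-basal DES cluster 5 at 34.3 CPM.

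**Figure D3:**
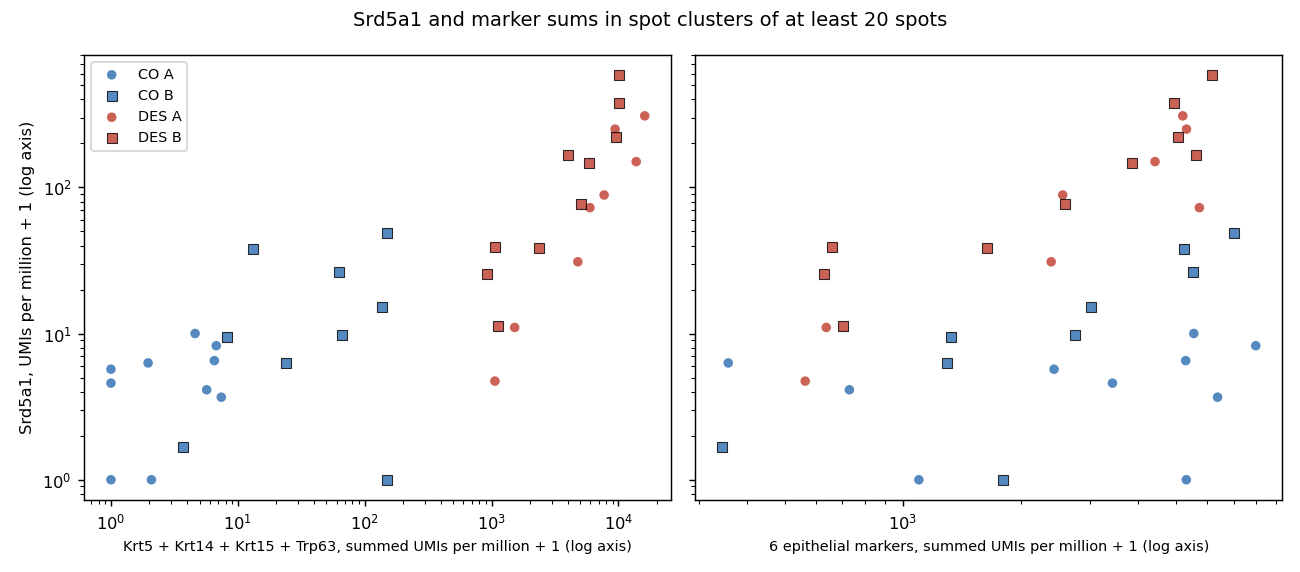
Srd5a1 level against the summed basal markers (left) and the summed epithelial markers (right) in spot clusters with at least 20 spots (CPM + 1, log axes, each point a cluster). The DES clusters run from 3.73 to 587 CPM of Srd5a1 and are higher where either marker sum is higher, while CO clusters stay at or below 47.6 CPM.

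Hsd11b2 was lower in both DES sections than in both CO sections in whole sections and in stromal, epithelium-rich and muscle-rich spots, and fell in the last 2. With the 15% of spots highest in stromal score the groups overlapped, at 689 and 197 CPM in CO and 226 and 93.1 CPM in DES. In epithelium-rich spots it was at 128 and 53.2 CPM in CO A and CO B and at 17.4 and 16.7 CPM in DES A and DES B. The groups did not overlap, and the fall was -2.72 ± 0.47 log2 (adjusted p = 0.0333), or -1.93 without CO A and -3.23 without CO B. In muscle-rich spots it was at 285 and 174 CPM in CO against 74.4 and 84.2 CPM in DES, again without overlap (-1.69 ± 0.31 log2, adjusted p = 0.0294, and 0.0655 with the top 10% of spots). In stromal spots, where it was highest in each section, it was at 1248 and 288 CPM against 251 and 176 CPM, and the change of -1.88 ± 0.60 did not pass (adjusted p = 0.198). It passed with DESeq2 (0.0444) and without the filter (1.11e-05), and the change was -0.52 without CO A and -2.58 without CO B. In whole sections it was at 385 and 141 CPM against 80.3 and 46.4 CPM (-2.28 ± 0.57, adjusted p = 0.0938, against 0.000146 with DESeq2), or -1.35 without CO A and -2.85 without CO B. Stromal markers moved with it: 6 markers summed to 792 and 580 CPM in CO against 263 and 216 CPM in DES epithelium-rich spots, and to 2915 and 2931 against 1359 and 968 CPM in whole sections. In muscle-rich spots they summed to 3674 and 3226 CPM in CO against 2660 and 2198 CPM in DES, although Dpt alone was at 110 and 150 CPM against 234 and 203 CPM. In the stromal spots themselves the stromal markers summed to 5857 and 4446 CPM in CO and 3393 and 2581 CPM in DES, and the muscle markers to 963 and 762 CPM against 3170 and 9544 CPM. The part of these cells in the fall of Hsd11b2 was not tested.

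Hsd17b11 also fell in epithelium-rich spots. It was at 178 and 131 CPM in CO and 75.4 and 83.8 CPM in DES, which is -1.26 ± 0.25 log2 (adjusted p = 0.0448). The call was lost with the top 10% or 25% of spots (adjusted p = 0.0613 and 0.0638). Hsd17b2 was lower in both DES sections, at 39.9 and 12.1 CPM in CO (153 and 39 UMIs) against 1.69 and 0 CPM in DES (4 and 0 UMIs), a fitted change of -5.24 ± 1.05 log2 (adjusted p = 0.0469). Neither gene's groups overlapped. Hsd17b2 passed the filter on low counts only through the CO sections, so that it had to differ, and neither its p nor its lack of overlap is support. Its fitted fold rests on the prior count at the DES end and ran from -9.48 (without DES A) to -4.10 log2 (without CO A), so the counts are the firmer value. In whole sections it had 310 and 61 UMIs in CO against 6 and 7 in DES (adjusted p = 0.0598), where it also passed the filter only through the CO sections. Hsd17b11 in whole sections was at 192 and 135 CPM against 81.6 and 91.6 CPM (-1.12 ± 0.25, adjusted p = 0.0733). Epithelial markers in epithelium-rich spots summed to 8204 and 7296 CPM in CO and 6524 and 6457 CPM in DES, basal markers to 4.96 and 126 against 10140 and 6357 CPM, and myeloid markers to 464 and 468 against 3348 and 1393 CPM. Their part in these differences was not tested.

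Cyp21a1 and Hsd11b1 depended on the CO section. Cyp21a1 in epithelium-rich spots was at 213 CPM in CO A and 14.5 CPM in CO B, with DES A and DES B between them at 43.2 and 48.9 CPM (-1.62 ± 1.06, adjusted p = 0.408). Hsd11b1 in the same spots was at 8.61 and 27.2 CPM in CO, with DES at 9.32 and 9.31 CPM (-1.23 ± 0.58, adjusted p = 0.262). Without CO A the Hsd11b1 change was -1.83, and without CO B it was -0.21. In whole sections, where the Hsd11b1 groups did not overlap, its change was -1.01 ± 0.40 (edgeR, adjusted p = 0.213), or -1.44 without CO A and -0.39 without CO B. In epithelium-rich spots the groups overlapped for both genes, and the 2 CO sections ranked in opposite order for them. CO B was also the higher of the 2 for Srd5a1 and for the gland gene Sult1d1, at 8.87 and 113 CPM in CO A and CO B, and the lower for Hsd17b2. This order is a description of 2 sections, of which CO B had the tissue fold, and was not tested. In stromal spots Hsd11b1, Hsd17b11 and Cyp21a1 also overlapped between CO and DES, at 8.86 to 36.9, 95.5 to 150 and 4.34 to 96.7 CPM over the 4 sections.

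**Figure D4:**
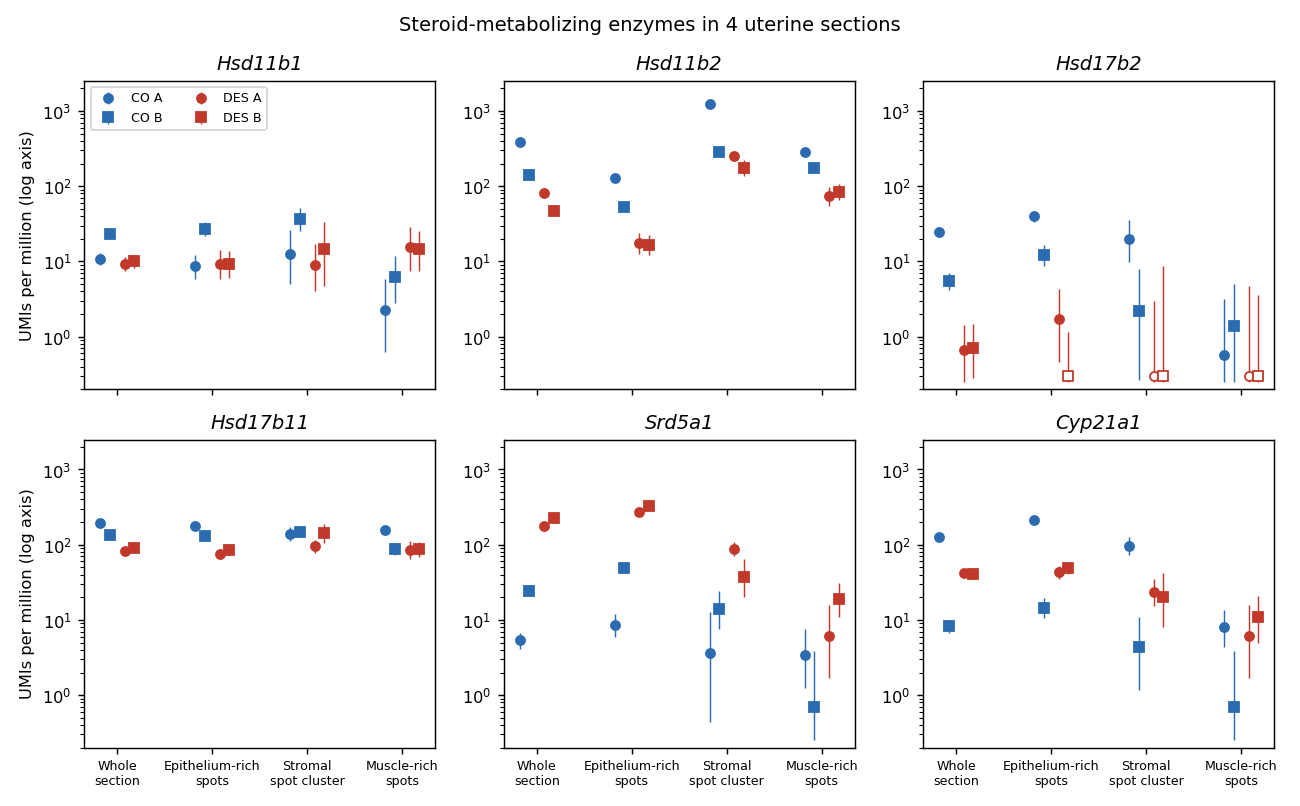
Level of 6 members in CO A, CO B, DES A and DES B, in whole sections and in stromal, epithelium-rich and muscle-rich spots (CPM, log axis; bars are exact 95% Poisson intervals and open symbols mark 0 UMIs). Srd5a1 lies higher and Hsd11b2 and Hsd17b2 lie lower in both DES sections in epithelium-rich spots, while the Cyp21a1 levels of DES lie between 213 CPM in CO A and 14.5 CPM in CO B.

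Over the members, 3 of the 6 tested were called lower in epithelium-rich spots, where 6.44% of 11494 genes were called and 2.34% were called lower. One of the 3 is Hsd17b2, which had to differ as said above, so nothing is read from this count. In muscle-rich spots 1 of 3 tested fell, where 1.57% of 9462 genes were called and 0.571% lower. In whole sections edgeR called 0 of 6 members at an adjusted p of 0.05, with 5.3% of 14098 genes called. An unadjusted p below 0.05 was found for 4 members and for 3438 of all genes, and DESeq2 called 1 member higher and 3 lower, with 12.7% of all genes called. Hsd17b2 is in both counts and passed the filter only through the CO sections there too, so nothing is read from them. In stromal spots edgeR called 0 of 5, with 1.47% of 8914 genes called. There 2 members and 1194 of all genes had an unadjusted p below 0.05, and DESeq2 called 1 member higher and 1 lower, with 2.17% of all genes called. One of the 2, and the one called higher, is Srd5a1, which the CO sections alone would not have passed through the filter there, so nothing is read from these counts. Every call in epithelium-rich and muscle-rich spots was lost without DES A or DES B. Fewer of all genes were called then too, so the loss is not read as a trait of the members. With 1 section left out, the log2 change of Hsd11b2 ran from -3.23 to -1.93 in epithelium-rich and from -2.01 to -1.32 in muscle-rich spots. In epithelium-rich spots that of Hsd17b11 ran from -1.48 to -1.01 and that of Hsd17b2 from -9.48 to -4.10.

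The DES difference was compared between regions. Hsd11b1 in muscle-rich spots was at 2.28 and 6.205 CPM in CO and 15.5 and 14.4 CPM in DES (4 and 9 UMIs against 10 and 12), without overlap but also without a call (1.66 ± 0.59, adjusted p = 0.224), and it passed the filter there only through the DES sections. The DES effect was lower in epithelium-rich than in muscle-rich spots by -2.78 ± 0.62 log2 for Hsd11b1 (adjusted p = 0.0312) and by -2.38 ± 0.57 for Cyp21a1 (adjusted p = 0.0395), 2 of 6 members tested. Over all 12118 genes 3.88% were called and 1.52% in this direction. DESeq2 called 0 of the 6, both genes giving an adjusted p of 0.165. The Hsd11b1 call was lost without DES A or DES B, and the Cyp21a1 call without CO A, DES A or DES B. Fewer of all genes were called too without DES A or DES B. With 1 section left out, the difference ran from -2.96 to -2.73 for Hsd11b1 and from -2.60 to -1.92 for Cyp21a1. Cyp21a1 in muscle-rich spots rested on 14 and 1 UMIs in CO and 4 and 9 in DES. In muscle-rich spots the muscle markers summed to 52048 and 56546 CPM in CO and 31713 and 26479 CPM in DES, and the T cell markers to 12.0 and 15.2 CPM in CO against 54.2 and 74.6 CPM, and their part in these differences was not tested.

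**Figure D5:**
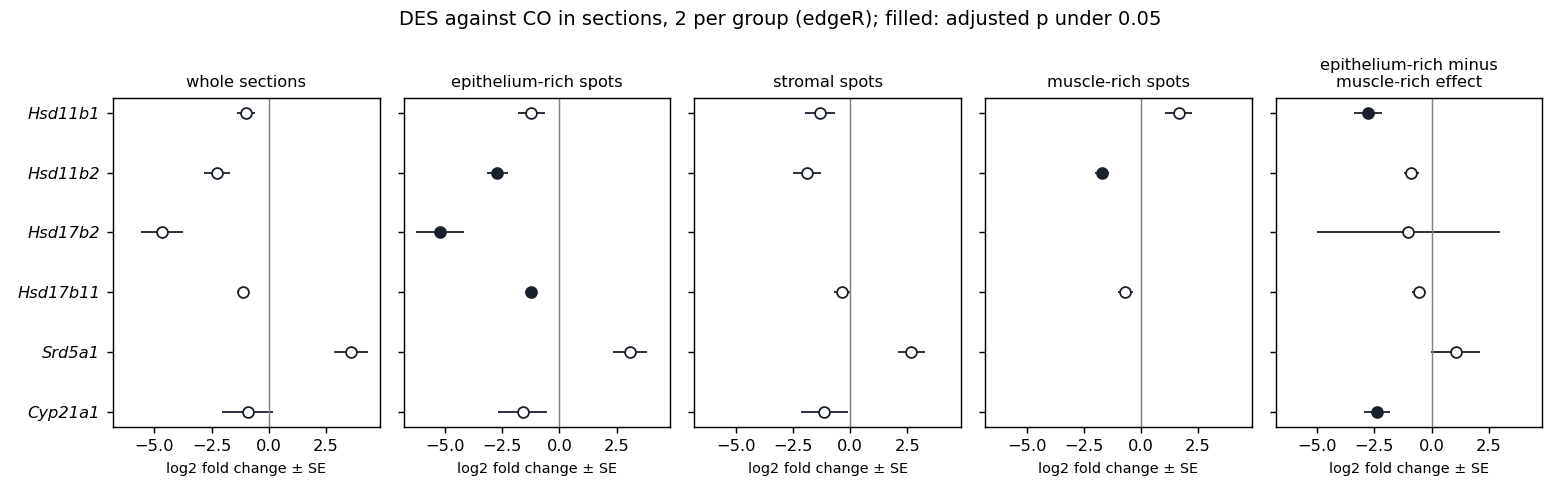
Log2 fold change of DES over CO for each tested member in whole sections and 3 sets of spots, and the difference of that effect between epithelium-rich and muscle-rich spots (edgeR; bars are the standard error, filled points have an adjusted p below 0.05). Filled points are Hsd11b2, Hsd17b11 and Hsd17b2 in epithelium-rich spots, Hsd11b2 in muscle-rich spots, and Hsd11b1 and Cyp21a1 in the difference, all below 0.

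Of the pathway lists, 30 genes were tested in whole sections, of which 3 were called higher in DES and 0 lower by edgeR, beside the 5.3% of all genes called. An unadjusted p below 0.05 was found for 7 of the 30 and for 3438 of all 14098 genes, and DESeq2 called 3 higher and 1 lower beside 12.7% of all genes, so both shares lay near those of all genes. The lists had a median log2 fold change of -0.03 against -0.01 for all genes. Akr1c18, the 20α-hydroxysteroid dehydrogenase that inactivates progesterone, was at 5.04 and 1.81 CPM in CO and 45.2 and 65.1 CPM in DES (log2 fold change 3.78, adjusted p = 0.0319). Papss1, which makes the sulfate donor of sulfotransferases, was at 35.7 and 32.4 CPM against 85.0 and 82.7 CPM (1.09, adjusted p = 0.0360). Cyp1b1, an estrogen hydroxylase, had 0 and 1 UMIs in CO against 59 and 259 in DES (adjusted p = 0.0398), and entered the test only through the DES sections. Papss1 also rose in epithelium-rich spots, where 24 list genes were tested (adjusted p = 0.0400). Akr1c18 was at 10.4 and 3.41 CPM in CO and 67.3 and 125 CPM in DES there. Only 1 CO section reached the filter's minimum, so the CO sections alone would not have passed it, and its adjusted p of 0.0302 is not read as support. Of the 24 genes there, 8 had an unadjusted p below 0.05, as had 2849 of 11494 genes in all, and DESeq2 called 3 higher and 2 lower, with 9.64% of all genes called. Without DES A or DES B the edgeR list calls in whole sections were lost, and those in epithelium-rich spots were lost in part or in full. Far fewer of all genes were called then too. By edgeR 0 list genes passed in stromal (16 tested) or muscle-rich spots (19 tested), where 2 and 3 had an unadjusted p below 0.05, as had 1194 of 8914 and 1354 of 9462 genes in all, and DESeq2 called 1 and 0, with 2.17% and 1.73% of all genes called. Akr1c18, like Srd5a1, was lower in DES in the cell libraries, at 7.03 CPM in CO and 0.262 CPM in DES non-basal epithelial cells.

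Genes with the most similar pattern were ranked by Pearson's r of log2(CPM + 1) over 14 groups of cell type and library with at least 50 cells, as a description. For Hsd11b1 they were Ascc3 (0.910), Plac8 (0.903) and Uap1 (0.903). For Hsd11b2 they were the stromal genes Dpt (0.971), Mfap5 (0.951) and Islr (0.948). For Hsd17b2 they were Pls1 (0.958), Alpl (0.957) and Aoc1 (0.949), and for Cyp21a1 Car2 (0.982), Sprr2f (0.975) and Padi1 (0.974). For Srd5a1 they were Omp (0.933), Trim27 (0.919) and Sprr1a (0.909). For Hsd17b11 they were Alg9 (0.847), Atp6v1a (0.841) and Alas1 (0.821). The groups differ in depth and share 2 libraries.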

How the data were processed

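The deposited values are UMI counts, which the authors made with Cell Ranger 3.0.1 for cells and Space Ranger 1.2.2 for spots on mm10 (bcl2fastq 2.20.0.422, from the submitters' processing notes) and did not normalize. The deposited tables also give each cell's type and cluster and each spot's cluster. The methods of the study state that potential doublets were removed with scran. Whether the deposited counts, with 32387 CO and 16312 DES columns, come from before or after that step is not stated. No doublet caller was run here. The group of each section came from its treatment label, and that of each cell library from its title. The labels of CO B and DES B do not name the assay, and both were taken as sections from their spot tables and the methods of the study. The members and lists were chosen with earlier results of these data known. Of the metadata cells, 350 have no count column.

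Summed counts were scaled to CPM of annotated cells or spots, with exact Poisson 95% limits, while shares carry Clopper-Pearson intervals after thinning to 3000 UMIs per cell. A level of 0 is given as an upper limit from 3 counts. In cells, genes of at least 10 CPM in either library were called above 2-fold. Epithelium-rich and muscle-rich spots were the top 15% by marker score, and stromal spots the authors' clusters 8 (CO A), 6 (CO B), 4 (DES A) and 5 (DES B). Sections were tested with edgeR 4.0.16 (quasi-likelihood test, TMM, filterByExpr, threshold 0.05, R 4.3.3), and the standard error of a fold change comes from its quasi-likelihood F. Regions were compared as an interaction with section as a block. DESeq2 1.42.0, other size factors, no filter, other spot shares, the replicate block and each section left out were alternatives. The fits were tested on simulated data. Other tools were Python 3.11.15, NumPy 2.4.6, SciPy 1.17.1, pandas 2.3.3, limma 3.58.1 and matplotlib 3.10.9. Named genes are all members, the pathway genes past the threshold in a section comparison (at most 5 per comparison), the 5 with the largest fold in epithelial cells, the 3 most similar genes per member, and markers or known genes that move with a member. Sult1d1, H6pd and the marker genes in the text were named because a result turns on them.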

Additional observations from a re-analysis of the deposited data

Results flagged for a closer look

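The DES effect on Hsd11b1 in epithelium-rich minus muscle-rich spots was -2.78 log2, past the test of the difference between regions (edgeR, adjusted p = 0.0312). CO lay at 8.61 and 27.2 CPM in epithelium-rich and 2.28 and 6.205 CPM in muscle-rich spots, and DES at 9.32 and 9.31 CPM and at 15.5 and 14.4 CPM. The Cyp21a1 effect differed by -2.38 log2 in the same test (adjusted p = 0.0395), with 14 and 1 UMIs in CO muscle-rich spots and 4 and 9 in DES. With DESeq2 both had an adjusted p of 0.165, and each was lost without single sections as given above.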

How the results depend on the processing

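Over the 26 tested member values, 160 of 224 alternatives kept direction and side of the threshold, 38 passed it, 18 lost it and 8 changed direction. With 1 section left out, the log2 fold change of Cyp21a1 ran from -1.84 to 2.15 in whole sections, -2.16 to 2.22 in stromal and -2.52 to 1.37 in epithelium-rich spots, each highest without CO A and lowest without CO B. That of Hsd17b11 in stromal spots ran from -0.74 to 0.0058, highest without DES A. The region difference ran from -4.55 to 0.54 for Hsd17b2 (above 0 without CO A, and 0.0099 without DES B) and from -1.58 (without CO A) to 2.99 for Srd5a1. Cyp21a1 in whole sections was at 0.075 with the replicate block. The Cyp21a1 fits without CO A or CO B leave 1 CO section, and the calls of all genes moved with them, so only their folds are given.

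The number of genes called in whole sections (747) was 1791 with DESeq2 and 3 to 2819 with 1 section left out. In stromal spots (131) it was 714 without the filter, 453 with the replicate block, 235 with the top 15% of spots by stromal score and 40 to 357 with 1 section left out. In epithelium-rich spots (740) it was 97 to 2307 with 1 section left out. In muscle-rich spots (149) it was 751 without the filter, 448 with the replicate block, 74 and 526 with the top 10% and 25% of spots, and 28 to 1308 with 1 section left out. The region difference (470) was 249 with DESeq2, 1025 without the filter and 198 to 1304 with 1 section left out. Pathway genes called over the 4 section comparisons (5) were 10 with DESeq2, 14 without the filter, 10 with the replicate block and 0 to 21 with 1 section left out. Why the counts move was not tested. With the top 10% or 25% of spots, the Hsd17b11 call in epithelium-rich spots was lost while Hsd11b2 and Hsd17b2 were still called.

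The section letter was tried as a replicate block. Same-letter sections deviated together with correlations of -0.03, 0.09, 0.04 and 0.005 in the 4 comparisons, so the letters do not pair the sections. With the block 3.74% of all genes were called in whole sections, and of the members Srd5a1 was called higher (adjusted p = 0.0358) and Hsd11b2 (0.0413) and Hsd17b2 (0.0458) lower, the last having entered the test only through the CO sections. Srd5a1 was also called in epithelium-rich spots (0.00817), where 8.5% of all genes were called, and Hsd11b2 (0.0296) in stromal spots, where 5.08% were. Srd5a1 in stromal spots (0.00925) had reached the filter's minimum in both DES sections but in only 1 CO section, so that call is not read as support. Levels in cells moved by more than counting error in 17 of 36 alternatives and ratios in 6 of 33, with 0 changes of direction. With 1 library per condition and 2 sections per group, counting depth limits Sult1e1, Cyp11a1 and the DES counts of Hsd17b2.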

Other observations

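Barcodes without a deposited cell type numbered 20134 in CO and 6611 in DES, and they held 24 and 0 UMIs of Sult1e1 and 26 and 19 of Cyp11a1. Hsd11b2 was at 82.7 CPM over these CO barcodes and at 0.543 CPM over the DES ones.

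The highest levels of Hsd17b11 over the spot clusters were in CO A, at 536 CPM in cluster 9 and 426 CPM in cluster 4, which had means of 2336 and 6059 UMIs per spot. Muscle markers summed to 39381 and 50865 CPM in these clusters. Cluster 10, the one of lowest depth in CO A (986 UMIs per spot), was at 229 CPM. In the muscle-rich spots of CO the mast cell and basophil markers summed to 31.4 and 69.6 CPM, against 4.65 and 3.61 CPM in DES, where Cyp11a1 had 0 UMIs in both sections and CO had 1 and 2.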
